A study of Mus musculus with 2 samples.

Results

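The genes described here are 10 nuclear effectors and targets of the Hippo pathway in the embryonic mouse limb: the coactivators Yap1 and Wwtr1 (the gene of TAZ), the DNA-binding partners Tead1 to Tead4, the TEAD cofactors Vgll2 and Vgll3, and the targets Ctgf and Cyr61. They were taken by name from the gene tables, and all 10 were found among 43346 gene rows. In the reference annotation Ctgf is now listed as Ccn2 and Cyr61 as Ccn1.

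Limb tissue came from C57BL/6J mouse embryos at embryonic day 14.5, with no treatment or mutation named in the labels. There was 1 group of 2 biological replicates, each a library from pooled littermates of both sexes, read as stranded pairs of 101 nucleotides from polyadenylated RNA over 200 nucleotides long. With a single group no condition can be contrasted, so the measurements are the level of each gene, the differences between genes, and the differences between the libraries. The labels leave unstated whether the pools stem from different litters, and the spread between them may be partly technical. Gene rows held 110172148 counts in replicate 1 and 103363136 in replicate 2. In whole tissue, fewer cells of a type and less RNA per cell cannot be told apart. Each of the 6 markers of limb identity was detected, among them the digit gene Hoxd13 at 90.7 and 122 TPM in replicates 1 and 2. TPM is a level scaled by the length of the transcripts, then to one total per library. The forelimb gene Tbx5 stood at 26.1 and 28.9 TPM. The hindlimb genes were higher, Tbx4 at 31.2 and 43.1 TPM and Pitx1 at 49.5 and 77.4 TPM.

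In the Hippo pathway a chain of kinases phosphorylates YAP1 and TAZ, which are then held in the cytoplasm or degraded. Unphosphorylated YAP1 and TAZ enter the nucleus, where they have no DNA-binding domain of their own and act through TEAD proteins, which bind DNA through the TEA domain. VGLL proteins bind TEAD proteins on a surface that overlaps the one used by YAP1 and TAZ, and Ctgf and Cyr61, which encode secreted matrix-associated proteins, are the targets most often used to read the pathway out. These steps act largely on protein, which was not measured here.

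All 10 genes were detected, meaning at least 1 TPM in both libraries, beside 33.8% of all genes and 62.8% of protein-coding genes. Tead2 was the highest at 385 ± 70.1 TPM (SD, n = 2) and Tead4 the lowest at 4.06 ± 0.375 TPM (SD, n = 2). By mean TPM the order was Tead2, Ctgf, Cyr61, Tead3, Yap1, Vgll2, Wwtr1, Tead1, Vgll3 and Tead4. The median of the 10 was 64.3 TPM, against 17.5 TPM over the 15055 genes that averaged 1 TPM or more. Among detected protein-coding genes Tead2 stood at the 98.0th percentile, Yap1 at the 82.2nd and Tead4 at the 14.6th.

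**Figure D1:**
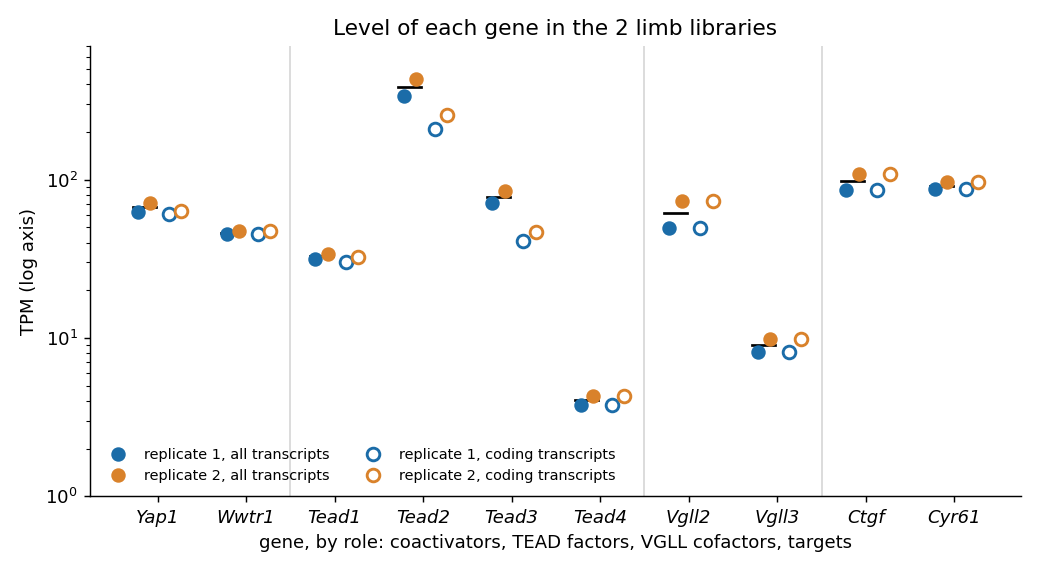
TPM on a log axis for each of the 10 genes, grouped by role. Filled points are the 2 libraries with all transcripts and the black line their mean, and open points count only the transcripts annotated as protein-coding. Tead2 lay at 336 and 435 TPM, above all other members, and the open points fell well below the filled ones for Tead2 and Tead3 only.

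The coactivators were both well expressed, with Yap1 the higher. Yap1 (ENSMUSG00000053110.9, chr9:7931999-8004596, minus strand, mm10) stood at 62.5 TPM in replicate 1 and 71.2 TPM in replicate 2, from 17857 and 17395 counts. Wwtr1 (ENSMUSG00000027803.10, chr3:57455649-57575910, minus strand) stood at 45.1 and 47.4 TPM, from 15202 and 14774 counts. The libraries did not overlap between these genes, the lower Yap1 value lying above the higher Wwtr1 value. The difference on the log2(TPM + 1) scale was 0.52 with a standard error of 0.19 and a 95% interval from 0.05 to 1.00, from a limma fit over 15055 genes. With coding transcripts alone the interval reached 0, at 0.42 with a 95% interval from -0.05 to 0.89. Together the coactivators summed to 108 and 119 TPM.

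Yap1 transcripts came in 2 main forms that differ in the coding sequence. Yap1-202 (ENSMUST00000086580.7, coding for 472 residues) held 64.7% and 55.5% of Yap1 TPM in replicates 1 and 2. Yap1-201 (ENSMUST00000065353.8, coding for 488 residues) held 29.3% and 29.1%. The forms differ by a coding exon of 48 nucleotides, or 16 codons, at chr9:7950492-7950539, and the shorter form was the more abundant in both libraries. The exon is shown because it separates the forms; capitals mark it, with 24 bases of the neighbouring exons on either side, from GENCODE M21 transcripts.
Yap1-201: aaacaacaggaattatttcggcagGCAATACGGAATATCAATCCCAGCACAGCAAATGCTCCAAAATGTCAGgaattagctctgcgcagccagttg
Yap1-202: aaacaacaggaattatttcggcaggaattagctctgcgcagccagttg
Wwtr1 was nearly all 1 form, Wwtr1-201 (ENSMUST00000029380.9, 395 residues), at 98.9% and 99.2% of its TPM.

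Among the TEAD factors the levels spread widely and Tead2 dominated. Tead2 (ENSMUSG00000030796.11, chr7:45215753-45233644, plus strand) stood at 336 and 435 TPM, from 38044 and 42889 counts. Tead3 (ENSMUSG00000002249.13, chr17:28331671-28350817, minus strand) stood at 70.7 and 85.1 TPM, from 11697 and 12729 counts. Tead1 (ENSMUSG00000055320.12, chr7:112679318-112906807, plus strand) stood at 31.3 and 34.1 TPM, from 19591 and 19531 counts. Its counts exceeded those of Tead3 while its TPM was lower, since its effective length was 8335 nucleotides against 2205 for Tead3 in replicate 1. Tead4 (ENSMUSG00000030353.11, chr6:128224288-128300823, minus strand) stood at 3.79 and 4.32 TPM, from 719 and 738 counts. No library of one TEAD gene overlapped with a library of another.

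All 6 pairs of TEAD genes were apart, meaning that the 95% interval excluded 0 and the order was the same in both libraries. How often pairs of other genes are apart by this rule was not computed. The difference on the log2(TPM + 1) scale was 2.29 for Tead2 over Tead3, with a standard error of 0.23 and a 95% interval from 1.71 to 2.86. It was 3.51 for Tead2 over Tead1, with a 95% interval from 2.96 to 4.05. The widest was Tead2 over Tead4, at 6.25 with a 95% interval from 5.71 to 6.78. The closest was Tead3 over Tead1, at 1.22 with a 95% interval from 0.74 to 1.71. Tead1 to Tead4 summed to 441 and 558 TPM, of which Tead2 made up 76.0% and 77.9%. That sum was 4.10 and 4.71 times the sum of Yap1 and Wwtr1 in replicates 1 and 2.

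The level of Tead2 rested in part on short transcripts. A transcript of 460 nucleotides (ENSMUST00000143734.1), an identifier not listed under Tead2 in M21, was assigned 24.7% and 31.5% of Tead2 TPM from 1621 and 2233 counts. Its effective length was 261 nucleotides in replicate 1 and 234 in replicate 2. M21 has a Tead2 transcript of the same length, Tead2-204 at chr7:45232148-45233086, a processed transcript of 2 exons near the end of the gene, and whether it is the same model was not tested. The full-length coding forms Tead2-201 (ENSMUST00000033060.8) and Tead2-203 (ENSMUST00000107801.3), both for 445 residues, held 45.8% and 42.7%, and 15.1% and 14.97%. Of the 12 Tead2 transcripts, 9 had identifiers not listed under Tead2 in M21 and were not counted as coding. Among these, a transcript of 435 nucleotides has the length of the protein-coding Tead2-206, so the coding shares may be too low. Coding transcripts carried 91.8% of Tead2 counts in replicate 1 (95% Wilson interval 91.5% to 92.1%, counting error only) and 91.7% in replicate 2, but 62.5% and 58.5% of its TPM. Counting coding transcripts alone, Tead2 stood at 210 and 255 TPM. It remained the highest of the 10 genes on that scale, and the ratio of the TEAD sum to the coactivator sum became 2.69 and 3.04.

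A large part of Tead3 TPM was assigned to transcripts annotated as retained intron. Reads within the introns were not examined. Forms annotated as retained intron took 40% and 44.7% of Tead3 TPM, chiefly Tead3-202 (ENSMUST00000127212.3) at 20.95% and 22.6% and Tead3-203 (ENSMUST00000146668.3) at 14.1% and 18.4%. The coding forms Tead3-206 (ENSMUST00000156862.1) and Tead3-201 (ENSMUST00000114799.3) held 43.4% and 35.7%, and 13.0% and 17.8%. With coding transcripts alone the mean of Tead3 fell from 77.9 ± 10.1 to 44.1 ± 4.17 TPM (SD, n = 2). It then lay between Wwtr1 at 46.2 TPM and Tead1 at 31.2 TPM, and its difference over Tead1 shrank to 0.48 with a 95% interval from 0.02 to 0.95.

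**Figure D2:**
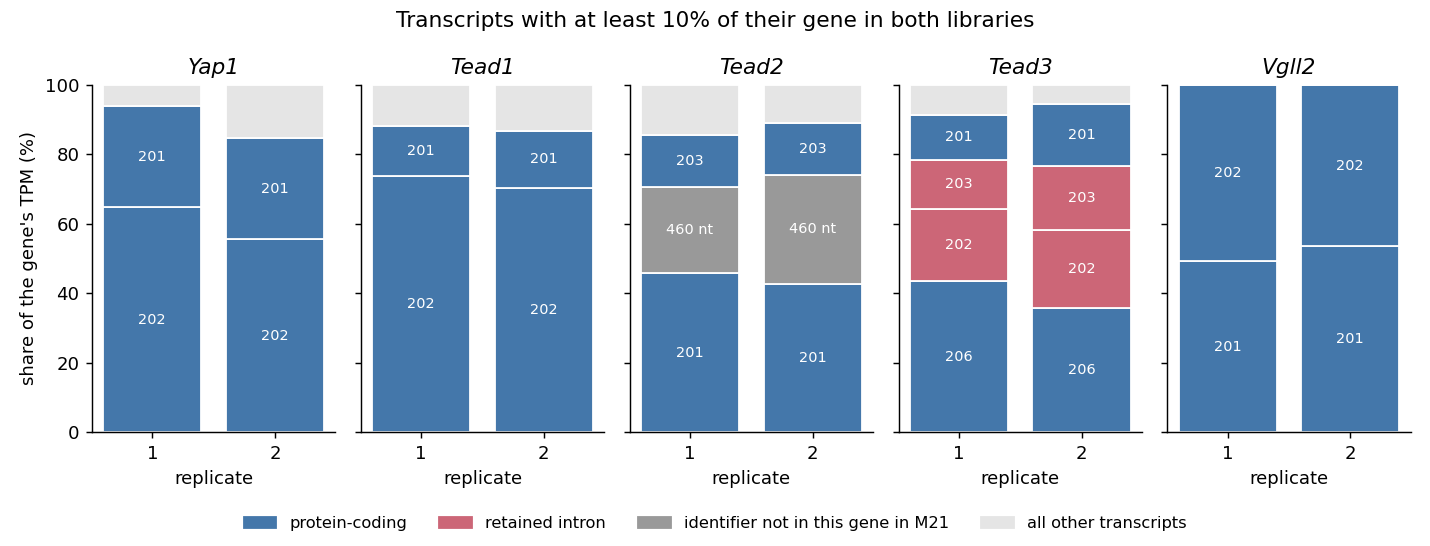
Share of each gene's TPM (percent, vertical axis) taken by each transcript that reached at least 10% in both libraries, for 5 genes in replicates 1 and 2. Colours give the annotation class and numbers the transcript name after the gene symbol. The largest transcript was the same in both libraries for Yap1, Tead1, Tead2 and Tead3 and changed places in Vgll2.

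Tead1 and Tead4 also had forms that differ by whole coding exons. Tead1-202 (ENSMUST00000069256.7, 411 residues) held 73.7% and 70.4% of Tead1 TPM, and Tead1-201 (ENSMUST00000059768.12, 436 residues) 14.4% and 16.4%. The longer form has an additional exon of 63 nucleotides at chr7:112841888-112841950, in the stretch that codes for the end of the TEA domain, and an exon of 12 nucleotides at chr7:112856053-112856064. The next exon, at chr7:112842040-112842102, is 63 nucleotides long as well. Set side by side without gaps, 44 of the 63 bases of this exon pair are identical (69.8%), including the first 11. Both forms are shown because the exon pair can be read in the longer one; capitals mark the exons missing from Tead1-202.
Tead1-201: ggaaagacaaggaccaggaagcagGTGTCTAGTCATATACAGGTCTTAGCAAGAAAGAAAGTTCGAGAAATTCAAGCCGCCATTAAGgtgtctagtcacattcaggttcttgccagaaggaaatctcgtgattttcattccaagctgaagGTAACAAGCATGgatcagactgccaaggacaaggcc
Tead1-202: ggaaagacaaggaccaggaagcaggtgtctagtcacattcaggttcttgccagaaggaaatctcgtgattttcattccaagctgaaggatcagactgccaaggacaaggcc
Tead4-201 (ENSMUST00000006311.8, 427 residues) held 74.4% and 69.0% of Tead4 TPM, and Tead4-203 (ENSMUST00000130454.3, 384 residues), which lacks a coding exon of 129 nucleotides at chr6:128247960-128248088, held 25.6% and 19.99%. The Tead4-203 shares rest on 110 and 89.9 estimated counts. Another form annotated with 384 residues, Tead4-202 (ENSMUST00000112157.2), held 0% and 10.98% of Tead4 TPM, from 0 and 55.6 estimated counts.

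The VGLL cofactors were far apart in level. Vgll2 (ENSMUSG00000049641.8, chr10:52022502-52028471, plus strand), a cofactor known from skeletal muscle differentiation, stood at 49.8 TPM in replicate 1 and 73.5 TPM in replicate 2, from 5134 and 6876 counts. Vgll3 (ENSMUSG00000091243.1, chr16:65815257-65866368, plus strand) stood at 8.13 and 9.83 TPM, from 1904 and 2125 counts. Vgll2 was above Vgll3 in both libraries, by 2.63 on the log2(TPM + 1) scale with a 95% interval from 2.08 to 3.18. Vgll2 had the widest gap between its libraries of the 10 genes, relative to its level. Its transcripts Vgll2-202 (ENSMUST00000163017.3) and Vgll2-201 (ENSMUST00000058347.4) took 50.8% and 46.5%, and 49.2% and 53.5%, so the leading one differed between libraries. The deposited length of Vgll2-201, 1493 nucleotides, is not that of its M21 model, 966 nucleotides. Vgll3 had 1 transcript, Vgll3-201, with a deposited length of 3322 nucleotides against 7009 in its M21 model. The effect of these lengths on the TPM of Vgll2 and Vgll3 was not tested.

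Of the VGLL genes outside the 10, Vgll4, a cofactor that lowers TEAD activity, stood at 57.9 and 74.4 TPM. It was above Vgll2 in both libraries, but only slightly in replicate 2, where Vgll2 stood at 73.5 TPM. No interval was fitted for this pair. Vgll1 was at 0.14 and 0.05 TPM, from 20 and 7 counts.

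The targets Ctgf and Cyr61 were the second and the third highest of the 10 and could not be ordered. Ctgf (ENSMUSG00000019997.7, chr10:24595442-24598683, plus strand) stood at 85.6 and 109 TPM, from 12579 and 14898 counts. Cyr61 (ENSMUSG00000028195.3, chr3:145646976-145649981, minus strand) stood at 86.7 and 96.8 TPM, from 11896 and 12174 counts. Cyr61 was the higher in replicate 1 and Ctgf in replicate 2, and their difference was 0.08 with a 95% interval from -0.45 to 0.61 on the log2(TPM + 1) scale. Ctgf transcripts were mostly Ccn2-201 (ENSMUST00000020171.7), at 82.0% and 86.5%. A short form of 343 nucleotides, Ccn2-202 (ENSMUST00000129142.1), took 12.0% and 10.8% from 111 and 96.6 estimated counts. Cyr61 had 1 transcript. Over all 10 genes the leading transcript was the same in both libraries for 9, Vgll2 being the exception. Cyr61 and Vgll3, with 1 transcript each, could not differ, and the share over all genes was not computed. Other members of the same gene family were lower: Wisp1 stood at 22.5 and 30.7 TPM and Nov at 20.1 and 16.5 TPM. Wisp3 stood at 1.64 and 2.06 TPM, and Wisp2 at 0.18 and 0.42 TPM from 21 and 42 counts.

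TEAD proteins recognise a core of 6 bases, GGAATG on one strand and CATTCC on the other, and both were searched in RefSeq promoter windows (GRCm38.p6) of 250 bases before to 50 bases after a gene start. Windows were found for 7 of the 10 genes, and those of Ctgf, Tead1 and Tead4 were not in the table. The core was found for 5 of the 7 genes, namely Yap1, Wwtr1, Tead3, Vgll3 and Cyr61, and in none of the windows of Tead2 and Vgll2. Over all windows 14.7% (4817 of 32851) held it, and 16.6% of genes. In the windows it began 103 bases before the RefSeq start of Cyr61, 141 before that of Yap1 and 63 before that of Vgll3. The Vgll3 window ends at chr16:65815238, before the M21 start of the gene at chr16:65815257, so the RefSeq and M21 starts differ there. Those 3 windows are printed with the core in capitals, in the orientation of the gene, because they belong to a target, a coactivator and a cofactor with a single match each; binding was not measured here.
Cyr61 promoter, chr3:145649936-145650235, minus strand: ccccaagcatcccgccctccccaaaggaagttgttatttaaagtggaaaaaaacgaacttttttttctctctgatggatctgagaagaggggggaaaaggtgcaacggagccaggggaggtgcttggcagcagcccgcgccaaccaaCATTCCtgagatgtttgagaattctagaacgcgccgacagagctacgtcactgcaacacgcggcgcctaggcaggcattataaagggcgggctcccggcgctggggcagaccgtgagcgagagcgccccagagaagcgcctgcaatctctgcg
Yap1 promoter, chr9:8004547-8004846, minus strand: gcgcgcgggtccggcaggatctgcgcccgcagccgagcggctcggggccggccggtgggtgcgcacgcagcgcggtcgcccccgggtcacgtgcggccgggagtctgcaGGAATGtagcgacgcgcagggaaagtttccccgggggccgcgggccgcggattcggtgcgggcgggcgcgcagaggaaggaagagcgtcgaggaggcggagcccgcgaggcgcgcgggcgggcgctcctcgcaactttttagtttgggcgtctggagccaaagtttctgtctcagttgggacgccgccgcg
Vgll3 promoter, chr16:65814939-65815238, plus strand: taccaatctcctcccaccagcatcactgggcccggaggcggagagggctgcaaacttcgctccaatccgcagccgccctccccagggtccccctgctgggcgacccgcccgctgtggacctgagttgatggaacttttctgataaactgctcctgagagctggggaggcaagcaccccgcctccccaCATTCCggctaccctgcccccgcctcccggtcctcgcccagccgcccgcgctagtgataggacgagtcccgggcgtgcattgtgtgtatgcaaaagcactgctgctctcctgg

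Over all pairs compared, 8 of 9 pairs of genes with the same role were apart, Ctgf and Cyr61 being the exception. Because the share of all gene pairs apart by this rule was not computed, the counts describe these pairs only. Of the 9 pairs of neighbours in the order of levels, 4 were apart. Tead2 lay above Ctgf by 1.97 on the log2(TPM + 1) scale, with a 95% interval from 1.38 to 2.56. Wwtr1 lay above Tead1 by 0.49, with a 95% interval from 0.03 to 0.94. The step from Tead1 down to Vgll3 was 1.76, and that from Vgll3 down to Tead4 was 0.98, with 95% intervals from 1.31 to 2.21 and from 0.54 to 1.41. Between Ctgf and Wwtr1 no neighbours were apart, so the 6 genes Ctgf, Cyr61, Tead3, Yap1, Vgll2 and Wwtr1 formed a run in which no neighbours were separated beyond their spread. Some of these neighbours nonetheless kept one order in both libraries: Cyr61 was above Tead3 by 0.29 and 0.18 and Tead3 above Yap1 by 0.18 and 0.25 on the same scale in replicates 1 and 2. The intervals rest mainly on the spread shared over all genes, and with the spread taken from differences within each library the same counts of 8 and 4 were apart. With intervals widened for all 45 possible pairs of the 10 genes, 7 role pairs and 2 neighbour pairs were apart.

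**Figure D3:**
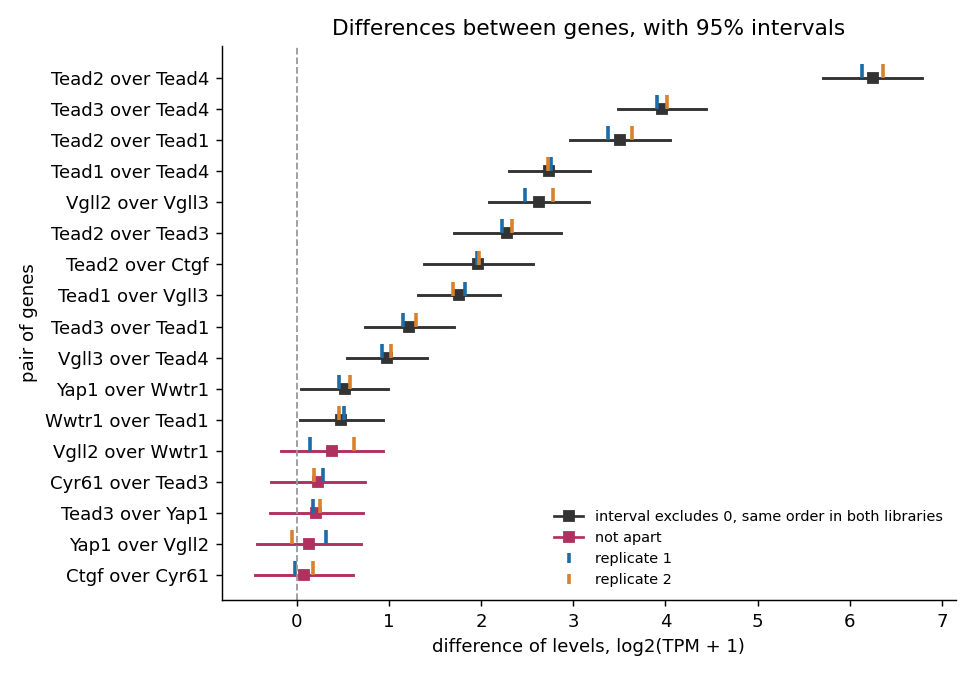
Difference between the levels of 2 genes on the log2(TPM + 1) scale, for role pairs and neighbours in level, with 95% intervals from the limma fit and the value in each library as coloured ticks. The 5 pairs in red, among them Ctgf over Cyr61, were not apart, and Tead2 over Tead4 at 6.25 lay farthest from 0.

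All 10 genes were higher in replicate 2 than in replicate 1. Counts scaled to library size with TMM (CPM, scaled counts as a share of the library) were 1.45-fold higher for Vgll2, with a 95% counting interval from 1.397 to 1.503. They were 1.28-fold higher for Ctgf, 1.22-fold for Tead2, 1.21-fold for Vgll3 and 1.18-fold for Tead3. Cyr61 and Tead4 were both 1.11-fold higher, Tead1 1.08-fold, Yap1 1.05-fold and Wwtr1 1.05-fold. The median fold of the 10 was 1.14 and that of the 15055 genes 1.00, of which 50.7% were higher in replicate 2 by CPM and 52.8% by TPM. The direction held for each of the 10 under TMM, DESeq2 size factors, library totals, ERCC scaling, TPM, FPKM and TPM of coding transcripts, with the lowest fold at 1.04 under library totals.

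An exact two-sided conditional binomial test called 9 of the 10 genes between the libraries after Benjamini-Hochberg adjustment over 20396 genes. It called 60.0% of those genes in either direction and 30.1% as higher in replicate 2. Tead4 was the member not called, with an adjusted p of 0.0774 by the exact binomial test. The test compares these libraries and covers counting error only. None of the 10 passed 1.5-fold, beside 10% of genes (2.50% higher and 7.49% lower in replicate 2), and the nearest to it was Vgll2.

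Marker lists of some tissues of the limb also moved between the libraries, and others moved less. Each of the marker lists had all its members detected, none at 0. The 8 epidermis markers summed to 1780 CPM in replicate 1 and 1198 CPM in replicate 2, with 0 of 8 higher in replicate 2. The 10 skeletal muscle markers summed to 3258 and 2664 CPM, with 3 of 10 higher. That list was mixed. Its sarcomere genes Tnnt1, Mylpf, Myh3 and Ttn were at 0.41-, 0.49-, 0.57- and 0.76-fold in replicate 2, but Acta1 and Actc1 at 0.94- and 1.01-fold. Of the myogenic regulators, Myod1 and Myf5 were at 1.35- and 1.32-fold and Myog at 0.95-fold. Des was at 0.94-fold, and Vgll2 at 1.45-fold. The 8 cartilage markers summed to 7126 and 8074 CPM, with 6 of 8 higher, and the 6 limb identity markers to 676 and 805 CPM, with 6 of 6 higher (5 of 6 by TPM). Relative to their size, the sums of the remaining lists moved less. Endothelium markers stood at 514 and 509 CPM (4 of 8 higher) and red blood cell markers at 6051 and 5830 CPM (5 of 8). Fibroblast and tendon markers stood at 10419 and 9694 CPM (2 of 8). Schwann cell and nerve markers stood at 136 and 146 CPM (5 of 6). Of genes averaging 1 TPM or more, 50.7% were higher by CPM. The part of tissue makeup in the differences of the 10 genes was not tested.

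**Figure D4:**
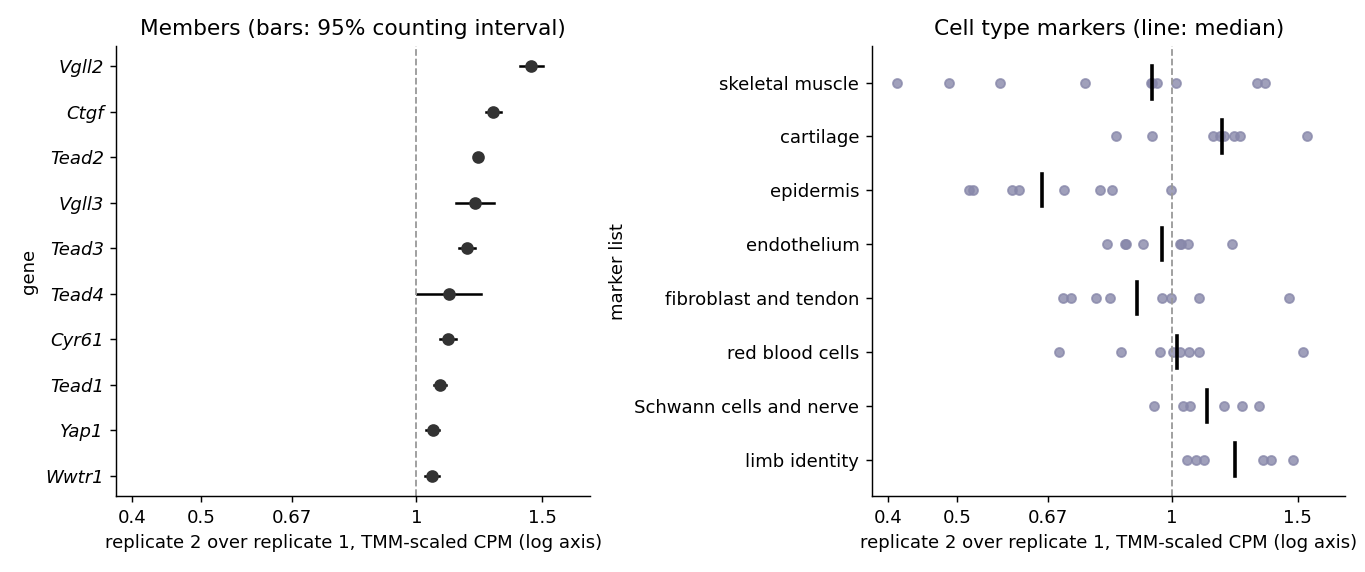
Ratio of TMM-scaled CPM, replicate 2 over replicate 1, on a log axis. On the left are the 10 genes with 95% counting intervals, all to the right of 1, and on the right the single markers of 8 tissues with the median of each list as a line; epidermis markers lay at or below 1.

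The kinases and adaptors upstream of Yap1 and Wwtr1 were all detected. The core cassette of 8 genes had a median of 22.4 TPM. The scaffold Nf2 was the highest at 54.0 and 58.5 TPM, followed by the kinase adaptors Mob1a at 43.5 and 41.2 TPM and Sav1 at 42.4 and 39.2 TPM. Of the kinases that phosphorylate YAP1 and TAZ, Lats2 stood at 23.7 and 28.4 TPM and Lats1 at 17.9 and 19.6 TPM. The count of Lats2 in replicate 2 was not whole, so part of its reads was shared with another gene. The kinases above them were lower, Stk4 at 13.7 TPM in both libraries and Stk3 at 12.1 and 8.06 TPM. The adaptor Mob1b stood at 11.4 and 11.5 TPM. Yap1 was above each of these 8 genes in both libraries. By TMM-scaled CPM 3 of the 8 (Nf2, Lats1 and Lats2) were higher in replicate 2 and none passed 1.5-fold. Of genes averaging 1 TPM or more, 50.7% were higher and 10% passed 1.5-fold by that measure. By TPM 5 of the 8 were higher, Stk4 and Mob1b being added, and 1 passed 1.5-fold, Stk3, which was lower in replicate 2. Over genes averaging 1 TPM or more, 52.8% were higher in replicate 2 and 11.6% passed 1.5-fold by TPM.

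Each of 29 further upstream regulators was detected. Their median was 21.4 TPM, and 19 of 29 were higher in replicate 2 by scaled CPM and 20 by TPM. Of genes averaging 1 TPM or more, 50.7% and 52.8% were higher by these measures. The 5 highest were Strn4, a subunit of the phosphatase complex that acts on the Hippo kinases, at 164 and 229 TPM, the kinase Map4k4 at 183 and 193 TPM, the giant cadherin Fat1 at 115 and 146 TPM, the polarity protein Scrib at 96.3 and 119 TPM and the kinase Taok2 at 84.6 and 93.6 TPM. By scaled CPM none of the 29 passed 1.5-fold between the libraries, beside 10% of genes. By TPM 1 did, beside 11.6% of genes, the scaffold Wwc1 at 11.6 and 7.39 TPM.

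Each of 14 cytoplasmic partners, which bind YAP1 or TAZ or their regulators, was detected. Their median was 64.9 TPM, and 8 of 14 were higher in replicate 2 by scaled CPM and by TPM alike. Of genes averaging 1 TPM or more, 50.7% and 52.8% were higher by these measures. The 5 highest belonged to one family of phosphoserine-binding proteins, which retain phosphorylated YAP1 in the cytoplasm. Ywhae stood at 525 and 458 TPM, Ywhaq at 250 and 216 TPM, Ywhaz at 220 and 208 TPM, Ywhah at 205 and 184 TPM and the epithelial member Sfn at 116 and 91.9 TPM. All 5 were lower in replicate 2, and so was Ywhab of the same family at 104 and 86.7 TPM. Ywhag, also of this family, was higher in replicate 2, at 69.55 and 74.6 TPM. Ywhaq and Ywhaz had estimated counts that were not whole, so their reads were partly shared with other genes.

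A published set of 20 other YAP1 and TAZ targets was detected in full. Its median was 23.6 TPM, and 14 of 20 were higher in replicate 2 by scaled CPM and 15 by TPM. Of genes averaging 1 TPM or more, 50.7% and 52.8% were higher by these measures. Ctgf and Cyr61 were above all of them but Igfbp3, an insulin-like growth factor binding protein, which stood at 230 and 233 TPM. Next came the receptor kinase Axl at 66.8 and 77.2 TPM, Amotl2 at 49.0 and 55.4 TPM, Ccdc80 at 45.7 and 35.8 TPM and Asap1 at 37.6 and 39.4 TPM. The transcription factor Foxf2 was the single gene of this set past 1.5-fold by either measure, at 10.7 and 16.3 TPM and 1.52-fold by scaled counts. Beside it, 10% of genes passed 1.5-fold by scaled CPM and 11.6% by TPM. In RefSeq windows of the same length the TEAD core was found for 6 of the 14 of these genes with a window (42.9%), beside 16.6% of all genes. The share was as large for the core kinase cassette, at 3 of 7 genes (42.9%), and it was 36.4% for the cytoplasmic partners (4 of 11) and 21.7% for the upstream regulators (5 of 23). Amotl2, Lats2 and Ptpn14 sit in 2 of the lists.

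All 10 genes had whole counts in both libraries, within 0.005 of a whole number. Genes on the opposite strand overlap some of them. Cd37, which overlaps Tead2, stood at 4.04 and 4.89 TPM, and the noncoding Gm15270, which overlaps Ctgf, at 8.60 and 6.77 TPM. The libraries were stranded, but no source used here says whether the counting used the strand.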

How the data were processed

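The authors deposited a gene and a transcript table per library, made on mm10 with GENCODE M4, as their accompanying text file says; the program and its settings are not named in the sources used here. Per the file headers the deposited values are expected counts, TPM, FPKM, lower and upper interval bounds of TPM (a signal never below 0, with no confidence level stated and not used in the text) and transcript shares in percent. The deposited FPKM served only as an alternative scaling.

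The 10 genes, the lists and the rule for naming genes were chosen with earlier results of these data known. The text names every member, the core kinase, VGLL and CCN genes, of the other Hippo lists the 5 highest and those under 1 TPM or past 1.5-fold, and transcripts of at least 10% of their gene in both libraries. Cell type markers were read as lists. Those named, and Wwc1, Ywhab, Ywhag and the transcript Tead4-202, were chosen after their values were seen. Names and coordinates came from GENCODE M21 (GRCm38); 884 of 43346 rows had no match. Rows of phiX and tRNA were not used, and those of the ERCC spike-ins served only for the ERCC scaling.

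Expected counts were scaled with edgeR 4.0.16 (TMM factors 1.01 and 0.993, prior count 0.5). They were rounded for the binomial test, the counting intervals and the DESeq2 size factors. The exact binomial test used genes with at least 10 counts. Pairs used an intercept-only limma 3.58.1 fit to log2(TPM + 1) with eBayes and trend, over genes averaging 1 TPM or more, with intervals not adjusted for the number of pairs. "Coding transcripts alone" sums TPM of transcripts annotated as protein-coding in M21, so transcripts whose identifier is not in M21 drop out. On simulated data for these comparisons, 94.75% of 2000 true pair differences among 15055 genes lay inside their 95% intervals, and the binomial test over 20396 genes found 96 of 100 changes of 1.5-fold. The simulated levels had independent errors of the kind the fit assumes. The simulated counts held counting error only, and the changes were placed only in genes of higher counts. Neither simulation measures how the methods perform on the real spread between these libraries. Alternatives were pseudocount, filters, posterior mean TPM, eBayes without trend, widened intervals, DESeq2 1.42.0 size factors, library totals, ERCC scaling, FPKM, single libraries and, added after seeing the data, pair differences within libraries.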

Additional observations from a re-analysis of the deposited data

How the results depend on the processing

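Detection held for all 10 genes in every alternative but a threshold of 5 TPM, which 9 reached. With a pseudocount of 0.1, no filter, posterior mean TPM or eBayes without trend, 8 role pairs and 4 neighbour pairs were apart as before. With coding transcripts alone these were 7 and 5, the neighbours being partly other pairs because Tead3 moved down the order, and with intervals widened for 45 pairs 7 and 2; the lost role pair was Yap1 over Wwtr1 in both, at 0.42 (-0.05 to 0.89) and 0.52 (-0.67 to 1.71). No role pair that was apart changed sign. The binomial test called 9 of 10 genes under DESeq2 size factors, library totals or no filter. Over all genes tested it called 60.0%, 59.9% and 49.8% in these settings. Under any of 6 other scalings or prior counts 0 of 10 passed 1.5-fold, beside 9.53% to 11.9% of genes averaging 1 TPM or more. The leading transcript was shared by 9 of 10 genes, also by posterior mean TPM, but Cyr61 and Vgll3 have 1 transcript each and could not differ. With a single library the pair intervals could not be fitted. With the replicate block, that is the spread of differences within libraries (chosen after seeing the data), 8 and 4 pairs were apart and no call changed. Its prior spread still treats the 2 genes as independent. With 2 libraries each gene has 1 degree of freedom of its own, so the pair intervals lean on the spread shared over all genes.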
